A study of Homo sapiens with 192 samples.

Results

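Kinesins are motor proteins that burn ATP to move along microtubules or to take them apart. The genes described here are the protein-coding genes whose symbol is KIF with a number and at most 1 further letter, together with KIFC1, KIFC2 and KIFC3, which gave 42 of the 58243 genes listed in the counts. By their best known roles they were placed in 3 classes. There were 14 mitotic kinesins, which build the spindle, move chromosomes or complete cell division, 15 transport kinesins, which carry vesicles, organelles and ciliary cargo, and 13 other kinesins, which shape microtubule ends, work in cilia or have a role that fits neither class. CENPE is a mitotic kinesin by structure whose symbol the rule does not take, and it is given with the spindle partners.

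Most kinesins walk towards the plus end of the microtubule, and those of the KIFC group walk towards the minus end. Cargo motors such as kinesin-1 (KIF5 heavy chains with KLC light chains) and kinesin-2 (KIF3A with KIF3B or KIF3C, and the adaptor KIFAP3) are used throughout the cell cycle. The mitotic motors are made mainly in G2 and M phase, when MuvB acts with MYBL2 and FOXM1 at their promoters. These promoters hold a short element called CHR, often with CCAAT boxes bound by NF-Y. In a tumour line their transcripts are therefore known as marks of dividing cells. The comparison asked how far each kinesin gene differed between cells grown in 2D and in 3D, and whether mitotic and transport kinesins differed in the same way.

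RNA came from 4 human colorectal cancer (CRC) lines, namely HT29, LS513, LS174T and HCT116, each grown in 2D or in 3D, with 3 libraries in each of the 8 groups and no drug named in the labels. Each group is a single established line, so line and donor cannot be told apart, and the labels do not say whether libraries came from separate cultures. The p-values therefore measure the spread between these libraries, which may in part be technical. For each gene a single estimate of that spread is shared by the 8 groups, so a p-value does not rest on the spread of its own line alone. The 3D growth is not described further in the labels, and RNA from whole cultures cannot tell fewer dividing cells from less mRNA per cell. Counts of poly(A) RNA were summed over the technical replicates of each library and are given as CPM, which is each gene's share of the library's counts on a common scale set by TMM normalization. A log2 fold change is always 3D over 2D, with its standard error (SE), and a gene was called when its adjusted p of edgeR's quasi-likelihood test was under 0.05, over the 19387 genes tested. With 3 libraries against 3, an exact permutation test of a single gene cannot go below p = 0.1.

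Library totals were between 18723942 and 34277421 counts, so that 3 counts, taken as the floor, were between 0.0875 and 0.160 CPM before scaling. Libraries of a group differed by more than counting error, with a median chi-square per degree of freedom from 2.13 in LS513 2D to 10.3 in LS174T 3D. In the latter group replicate 2 stood apart from the other libraries, with KIF5B at 392, 233 and 489 CPM and KIF1B at 96.9, 45.7 and 117 CPM in replicates 1, 2 and 3. Calls in LS174T are therefore also given without it, for kinesins by gene and for the partner lists by count. The p-values and SEs in LS174T rest on the spread shared by all groups, which does not carry the larger spread of LS174T 3D in full. EPCAM, KRT8, KRT18 and CDH1 were found in every group, with EPCAM at 272.7 CPM or more. HCT116 lacked other defining markers of the colorectal epithelium, since CDX1, CEACAM5, LGALS4 and VIL1 were each under 1 CPM in both growth conditions. PTPRC and COL3A1, which mark leukocytes and fibroblasts, had group means of 0.0332 CPM or less. COL1A1 was at 14.1 and 16.0 CPM in HCT116 in 2D and 3D, and PECAM1 at 1.21 and 2.07 CPM in HT29, and neither was called in any line. DES, of muscle, was called higher in 3D in HCT116, from 0.916 to 2.55 CPM, and in HT29, from 0.107 to 0.385 CPM, and GFAP, of glia, in HT29, from 0.279 to 0.774 CPM. KRT20 and LGALS4, of the differentiated epithelium, were called higher in 3D in all 4 lines, and CDX2 in HT29, LS513 and LS174T. KRT18 was called lower in 1 line and KRT8 was called in none. Of the 10 epithelial markers, 6, 7, 3 and 3 were higher in HT29, LS513, HCT116 and LS174T, and 1, 0, 0 and 0 lower. Of all tested genes, 21.1%, 13.7%, 16.8% and 13.1% were higher and 19.6%, 9.9%, 12.3% and 9.15% lower. The part of these markers in the results on kinesins was not tested.

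Promoters were read from the RefSeq table (GRCh38.p14), 250 bases before to 50 after each start site, and held 34 of the 42 kinesin genes. The CHR element was taken as TTTGAA or as TTCGAA and was searched on both strands and found for 11 of the 14 mitotic kinesins (78.6%), 1 of 11 transport kinesins and 1 of 9 other kinesins, against 19.5% of all 27305 genes in the table. CCAAT on either strand was found for 11 of 14 mitotic kinesins (78.6%), 4 of 11 transport kinesins and 3 of 9 other kinesins, against 39.7% of all genes. Both motifs were present for 10 of the 14 mitotic kinesins (71.4%) and for 7.85% of all genes. KIF2C and KIF2B held neither motif, KIF20A held CCAAT without CHR, and KIF15 held CHR without CCAAT. The transport gene with CHR was KIF5B and the other one KIF24. A match is a description of letters in this window, and no binding was measured.

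The 90 bases before the start site are shown for the 6 mitotic kinesins that carry CHR there. Where the others with a match hold CHR, it lies outside this window. KIF1C and KIF3B, abundant transport kinesins, are shown for contrast. All are read in the direction of the gene, with capitals for the CHR letters and for CCAAT on either strand. The windows are chr10:92593040-92593129 (+) for KIF11, chr3:44761704-44761793 (+) for KIF15, chr11:28108157-28108246 (-) for KIF18A, chrX:70290014-70290103 (+) for KIF4A, chr16:29790661-29790750 (+) for the upstream start of KIF22, chr15:69414259-69414348 (+) for KIF23, chr17:4997860-4997949 (+) for KIF1C and chr20:32277561-32277650 (+) for KIF3B.
KIF11: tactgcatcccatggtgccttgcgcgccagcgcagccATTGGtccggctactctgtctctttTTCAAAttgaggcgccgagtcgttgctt
KIF15: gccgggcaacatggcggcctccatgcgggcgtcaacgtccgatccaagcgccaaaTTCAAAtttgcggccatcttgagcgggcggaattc
KIF18A: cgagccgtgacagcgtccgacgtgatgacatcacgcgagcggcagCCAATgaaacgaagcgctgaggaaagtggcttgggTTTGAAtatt
KIF4A: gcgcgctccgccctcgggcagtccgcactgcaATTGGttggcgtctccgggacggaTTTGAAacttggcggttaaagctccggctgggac
KIF22: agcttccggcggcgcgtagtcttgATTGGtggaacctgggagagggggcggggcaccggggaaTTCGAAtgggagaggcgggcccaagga
KIF23: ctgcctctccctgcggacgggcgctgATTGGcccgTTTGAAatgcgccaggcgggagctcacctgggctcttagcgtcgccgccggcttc
KIF1C: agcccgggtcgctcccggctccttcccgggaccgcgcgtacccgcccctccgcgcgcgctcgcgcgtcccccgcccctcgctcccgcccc
KIF3B: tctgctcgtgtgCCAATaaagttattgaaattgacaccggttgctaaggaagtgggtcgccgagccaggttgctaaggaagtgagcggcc
In KIF11, KIF18A, KIF4A, KIF22 and KIF23 the CCAAT box lay upstream of CHR. The KIF1C window held neither motif, and KIF3B held CCAAT alone.

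Of the 42 genes, 29 were detected in all 8 groups, with more than 3 counts in each library, and 37 had enough counts to be tested. KIF2B had 0 counts in all 24 libraries. KIF4B, an intronless copy of KIF4A, had 33 counts in all, KIF1A 34, KIF25 44 and KIF6 8. Reads of KIF4A and KIF4B were largely separable, since 4.34% of the 75-base stretches of KIF4A also occur in KIF4B, and reads with more than 1 alignment had been removed by the authors.

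Levels of different genes are compared as CPM per kilobase of exon, with the exons of all transcripts of a gene merged. In 2D, KIF5B, the widely expressed kinesin-1 heavy chain, stood at the top of the order in each line, with LS174T at 78.2 ± 2.53, HT29 at 52.2 ± 2.02, HCT116 at 52.2 ± 7.82 and LS513 at 46.9 ± 1.26 (mean ± SD, n = 3). In LS513 the next gene was KIFC1 at 45.6 ± 2.38, and in HCT116 KIF22 at 50.1 ± 3.59 and KIF2C at 47.3 ± 3.19. These neighbours lay within the SD of KIF5B. In HT29 the next gene was KIF2C at 45.4 ± 3.71. In LS174T KIF5B stood clear of KIF1C, at 42.9 ± 4.74. The order depends on the length used. KIF22 has 4312 exon bases against 2505 in its longest transcript, and KIF2C 3646 against 2955. KIFC1 has 3345 against 2706, while KIF5B has 5877 by both. Per kilobase of the longest transcript KIF22 would pass KIF5B in HT29, LS513 and HCT116. KIF2C would also pass it in HT29 and HCT116, and KIFC1 in LS513. The class ratios that follow rest on the same merged exon lengths. Summed per kilobase, the mitotic class in 2D was 1.92 ± 0.092 times the transport class in HT29, 1.75 ± 0.068 times in LS513, 2.34 ± 0.19 times in HCT116 and 1.18 ± 0.068 times in LS174T (SD, n = 3).

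Mitotic kinesins were called lower in 3D in every line, and none was called higher. Of the 12 tested, 11 were called lower in HT29, where 19.6% of all tested genes were, 9 in LS513, where 9.9% were, 8 in HCT116, where 12.3% were, and 5 in LS174T, where 9.15% were. The median log2 fold changes of the class were -0.86, -0.49, -0.52 and -0.32 in the same order, beside medians over all tested genes between 0.00 and 0.02. All 12 had no overlap between 2D and 3D libraries in HT29 (25.6% of all genes lower without overlap) and in LS513 (20.0%), as had 9 in HCT116 (17.6%) and 8 in LS174T (17.6%). All tested kinesins together had 23, 17, 18 and 17 of 37 genes lower without overlap, and 4, 5, 5 and 3 higher without overlap, where all genes had 27.3%, 22.9%, 22.8% and 20.9% higher. Genes called lower in all 4 lines were 2.46% of those tested, and 5 of the 12 mitotic kinesins were among them: KIF11, KIF14, KIF18B, KIF20B and KIF23. Called lower in at least 3 lines were 8 mitotic, 1 transport and 4 other kinesins, and 6.32% of all tested genes. For the mean effect over the 4 lines, 11 mitotic, 6 transport and 5 other kinesins were lower and 0, 3 and 1 higher, where 23.9% of all genes were lower and 26.6% higher. Without replicate 2 of LS174T 3D, KIF18B was the only mitotic kinesin still called lower in that line, where 3.56% of all genes then were, and the class median was -0.28. Without replicate 2 of LS513 3D, 5 of the 12 were called in LS513, beside 4.98% of all genes, and KIF14, KIF18A, KIF20B and KIF4A were not.

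**Figure D1:**
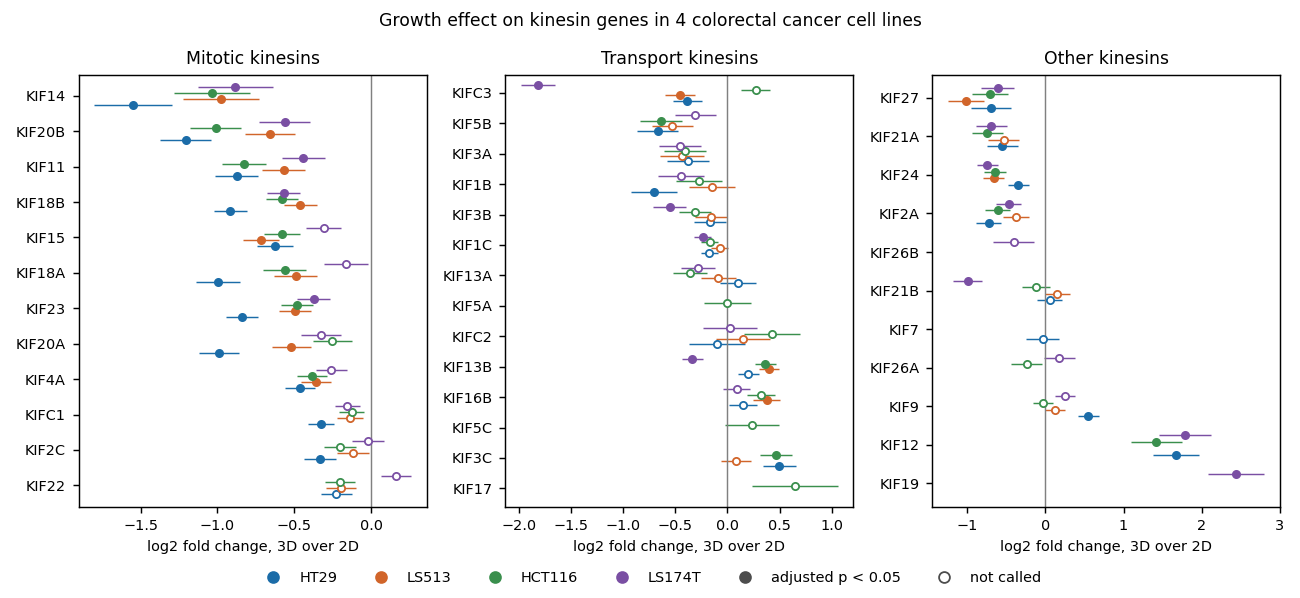
Log2 fold change of 3D over 2D (horizontal axis) for each kinesin gene (rows) in the 4 lines (colours), with bars of 1 standard error, filled points for an adjusted p under 0.05, and only lines in which the gene reached a mean of 1 CPM in either growth condition. The points of the mitotic class lie left of 0 except KIF22 in LS174T, while transport and other kinesins lie on both sides.

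The motors that set up the bipolar spindle differed in size of change. KIF11 (Eg5) slides antiparallel microtubules and pushes the spindle poles apart. Its levels in HT29 were 133, 139.6 and 154 CPM in 2D and 75.8, 78.04 and 78.7 CPM in 3D (log2 fold change -0.88, SE 0.14, adjusted p = 4.0e-05). In LS513 they were 131, 126 and 115 CPM in 2D and 75.9, 69.2 and 105 CPM in 3D (log2 fold change -0.57, SE 0.14, adjusted p = 0.0044). The 3D libraries lay below the 2D libraries in both lines. In HCT116 KIF11 was at 94.4, 108 and 75.6 CPM in 2D and 50.1, 50.1 and 56.4 CPM in 3D (log2 fold change -0.83, SE 0.14, adjusted p = 1.4e-04), and in LS174T at 99.8, 118 and 116 CPM in 2D and 80.9, 68.7 and 95.9 CPM in 3D (log2 fold change -0.44, SE 0.14, adjusted p = 0.027). The LS174T call was lost in 4 of 6 fits that left out 1 library, as were those of KIF20B in 3, KIF14 in 2 and KIF23 in 2. KIF15, which can keep the spindle bipolar beside KIF11, fell in 3 lines. Its 2D and 3D libraries were at 41.5, 44.1 and 40.3 CPM in 2D and 27.6, 25.9 and 27.96 CPM in 3D in HT29 (log2 fold change -0.63, SE 0.12, adjusted p = 2.1e-04). They were at 95.7, 93.2 and 93.4 CPM in 2D and 54.8, 50.9 and 66.1 CPM in 3D in LS513 (log2 fold change -0.72, SE 0.11, adjusted p = 7.9e-05).

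KIF15 was at 33.8, 37.02 and 30.4 CPM in 2D and 19.1, 23.1 and 25.4 CPM in 3D in HCT116 (log2 fold change -0.58, SE 0.12, adjusted p = 7.1e-04). In LS174T its libraries overlapped, at 43.4, 53.04 and 52.97 CPM in 2D and 39.5, 36.3 and 44.8 CPM in 3D (log2 fold change -0.31, SE 0.12, adjusted p = 0.057). KIFC1 (HSET) walks to the minus end, pulls poles together and clusters extra centrosomes. It was called lower in HT29 alone, with HT29 means of 96.8 ± 7.18 CPM in 2D and 77.1 ± 3.96 CPM in 3D (log2 fold change -0.33, SE 0.08, adjusted p = 0.0033). In the other lines its log2 fold changes were between -0.16 and -0.13 and none was called.

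Among the motors on chromosomes and microtubule plus ends, KIF18B was called lower in all 4 lines. KIF18B, which limits the length of astral microtubules, was at 76.9, 74.6 and 76.5 CPM in 2D and 39.1, 40.6 and 41.1 CPM in 3D in HT29 (log2 fold change -0.92, SE 0.11, adjusted p = 8.3e-07). It was at 68.7, 62.7 and 64.7 CPM in 2D and 46.6, 47.7 and 48.2 CPM in 3D in LS513 (log2 fold change -0.46, SE 0.11, adjusted p = 0.0027). The values for HCT116 were 122, 122 and 82.9 CPM in 2D and 76.8, 74.1 and 67.5 CPM in 3D (log2 fold change -0.58, SE 0.11, adjusted p = 2.6e-04). No 3D library reached the lowest 2D library of its line. In LS174T KIF18B was at 68.7, 68.1 and 64.9 CPM in 2D and 49.1, 43.2 and 43.6 CPM in 3D (log2 fold change -0.57, SE 0.11, adjusted p = 6.5e-04). KIF4A, a chromokinesin that also shortens the central spindle, was at 117, 129.7 and 112 CPM in 2D and 85.8, 85.4 and 88.9 CPM in 3D in HT29 (log2 fold change -0.46, SE 0.10, adjusted p = 6.6e-04). The libraries of the growth conditions did not overlap.

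KIF4A was at 93.96, 89.2 and 77.3 CPM in 2D and 68.9, 64.4 and 69.4 CPM in 3D in LS513 (log2 fold change -0.36, SE 0.10, adjusted p = 0.0092). In HCT116 it was at 86.5, 95.4 and 93.9 CPM in 2D and 59.2, 70.5 and 81.8 CPM in 3D (log2 fold change -0.38, SE 0.10, adjusted p = 0.0051). In LS174T it was at 70.3, 70.9 and 76.7 CPM in 2D and 62.05, 58.5 and 61.6 CPM in 3D, without overlap but not called (adjusted p = 0.061). KIF2C (MCAK), which removes tubulin from microtubule ends and corrects wrong attachments, was called in HT29 alone, from 166 ± 13.5 to 131 ± 5.65 CPM (log2 fold change -0.33, SE 0.10, adjusted p = 0.012). KIF22 (Kid), the chromokinesin that pushes chromosome arms away from the poles, was called in no line. Its log2 fold change was 0.16 in LS174T, against -0.23 for HT29, -0.20 for LS513 and -0.20 for HCT116, and the mean over the lines was -0.12 (SE 0.05, adjusted p = 0.053). Without replicate 2 of LS174T 3D, the KIF22 value in LS174T was 0.017 (SE 0.086). With an offset for transcript length and GC content, chosen after seeing the data, KIF22 was called lower in HT29 (-0.40), LS513 (-0.36) and HCT116 (-0.37).

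The motors of the midzone and midbody included the largest decreases. KIF14, which recruits citron kinase to the midbody, had the largest of the mitotic kinesins in each line. Its levels were 52.9, 57.96 and 53.4 CPM in 2D and 17.2, 17.7 and 21.3 CPM in 3D in HT29 (log2 fold change -1.55, SE 0.25, adjusted p = 4.8e-05), so the 3D mean was 34.2% of the 2D level in the fit. In LS513 they were 49.2, 44.5 and 40.7 CPM in 2D and 20.9, 15.7 and 31.6 CPM in 3D (log2 fold change -0.98, SE 0.25, adjusted p = 0.0056). In HCT116 they were 48.5, 66.5 and 33.96 CPM in 2D and 20.9, 23.9 and 27.9 CPM in 3D (log2 fold change -1.03, SE 0.25, adjusted p = 0.0031). The 2D libraries of HCT116 were widely spread, yet all lay above the 3D libraries. In LS174T KIF14 was at 41.2, 50.1 and 53.4 CPM in 2D and 26.4, 15.96 and 35.98 CPM in 3D (log2 fold change -0.88, SE 0.25, adjusted p = 0.014).

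KIF20B, needed for the last steps of abscission, followed KIF14 in size in HT29 and HCT116. It was at 105, 112 and 119 CPM in 2D and 48.6, 44.998 and 51.6 CPM in 3D in HT29 (log2 fold change -1.21, SE 0.17, adjusted p = 6.2e-06). In LS513 it was at 65.2, 63.4 and 57.2 CPM in 2D and 35.6, 29.8 and 52.2 CPM in 3D (log2 fold change -0.66, SE 0.16, adjusted p = 0.0051). The HCT116 libraries were at 59.8, 73.2 and 45.7 CPM in 2D and 26.7, 27.5 and 34.4 CPM in 3D (log2 fold change -1.01, SE 0.17, adjusted p = 9.5e-05). The 2D and 3D libraries were separate in these 3 lines and in LS174T, where KIF20B was at 36.9, 40.7 and 43.9 CPM in 2D and 26.05, 25.5 and 30.7 CPM in 3D (log2 fold change -0.56, SE 0.17, adjusted p = 0.019).

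KIF23 (MKLP1) forms centralspindlin with RACGAP1 and bundles the midzone. It was at 174, 196 and 165 CPM in 2D and 105, 99.5 and 94.8 CPM in 3D in HT29 (log2 fold change -0.84, SE 0.10, adjusted p = 1.9e-06). The LS513 libraries were at 110.04, 101 and 91.6 CPM in 2D and 69.3, 66.01 and 79.4 CPM in 3D (log2 fold change -0.49, SE 0.10, adjusted p = 0.0014). Its HCT116 libraries were at 138, 158 and 117 CPM in 2D and 90.02, 101 and 105 CPM in 3D (log2 fold change -0.48, SE 0.10, adjusted p = 0.0014). KIF23 fell in each of these lines without overlap. The LS174T libraries were at 50.4, 56.3 and 54.5 CPM in 2D and 42.6, 39.4 and 42.4 CPM in 3D (log2 fold change -0.37, SE 0.11, adjusted p = 0.015).

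**Figure D2:**
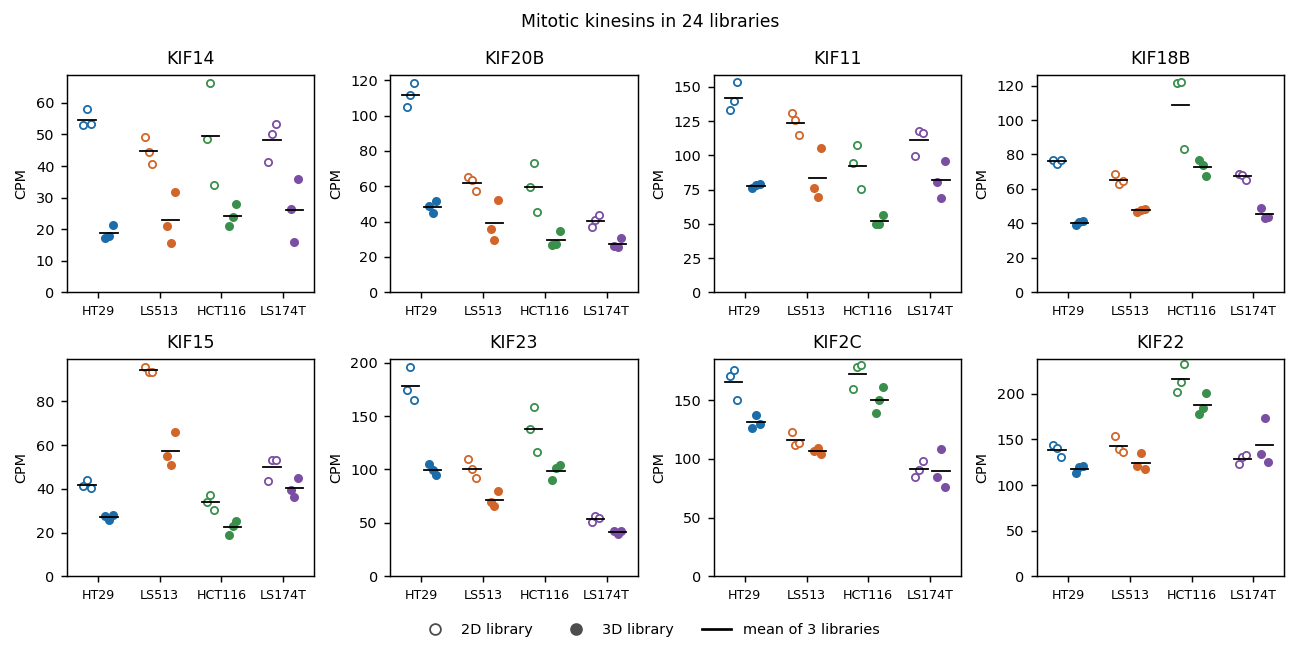
CPM of 8 mitotic kinesins (vertical axes, from 0) in the 24 libraries, by line, with open points for 2D, filled points for 3D and bars for the mean of 3 libraries. KIF14, KIF20B and KIF18B show 3D libraries below every 2D library of the same line. In LS174T the 3D libraries of KIF22 and KIF2C do not all lie below the 2D libraries, and KIF22 is highest there in replicate 2 of 3D.

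Transport kinesins had no common direction. Of the 14 tested, 3 were called lower and 1 higher in HT29, 1 lower and 2 higher in LS513, 1 lower and 2 higher in HCT116, and 4 lower and 0 higher in LS174T. The shares of all tested genes called lower stand above, and those called higher were 21.1%, 13.7%, 16.8% and 13.1% in the same order of lines. The class medians were -0.13, -0.08, 0.12 and -0.30. Without replicate 2 of LS174T 3D, KIFC3 was the only transport kinesin called lower in LS174T and the class median was -0.09. In 6 of the 14 genes no line gave a call. They were KIF13A and KIF3A, KIFC2, where FOXH1 on the opposite strand covers 17.8% of the exon bases, and KIF17, KIF5A and KIF5C, the latter pair near 0 outside HCT116.

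KIF5B, the main kinesin-1 heavy chain, fell in HT29, from 293, 311 and 316 CPM in 2D to 184, 166 and 228 CPM in 3D (log2 fold change -0.67, SE 0.20, adjusted p = 0.0095). For HCT116 the levels were 320.2, 345 and 256 CPM in 2D and 166, 197 and 228 CPM in 3D (log2 fold change -0.64, SE 0.20, adjusted p = 0.018). Its LS513 libraries were at 282, 276 and 268 CPM in 2D and 186, 140.2 and 246 CPM in 3D, without overlap but not called (adjusted p = 0.056). The HCT116 call was lost in 4 of 6 fits that left out 1 library, and the HT29 call without 3D replicate 3. The LS174T libraries overlapped, at 442, 469 and 467 CPM in 2D and 392, 233 and 489 CPM in 3D (log2 fold change -0.31, SE 0.20, adjusted p = 0.27). KIF1B, a carrier of mitochondria and vesicles, was called in HT29, where 2D libraries were at 112, 102 and 124 CPM and 3D libraries at 67.4, 55.7 and 84.4 CPM (log2 fold change -0.70, SE 0.22, adjusted p = 0.014). That call was lost without HT29 2D replicate 3 or 3D replicate 3. KIF1C, which moves vesicles and mRNA, was called in LS174T, at 413, 333 and 360.1 CPM in 2D and 318, 303 and 318 CPM in 3D (log2 fold change -0.24, SE 0.08, adjusted p = 0.041). This call did not hold in 4 of the 6 fits that each left out 1 LS174T library.

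The kinesin-2 subunits had unlike calls. KIF3A, its invariant motor, had log2 fold changes between -0.45 and -0.38 and no call in any line, though its mean over the lines was called (-0.42, SE 0.10, adjusted p = 0.0014). With the offset for length and GC content that mean was -0.12 and was not called (adjusted p = 0.10). KIF3B was called in LS174T, at 92.4, 92.3 and 101 CPM in 2D and 71.8, 40.4 and 82.4 CPM in 3D (log2 fold change -0.55, SE 0.16, adjusted p = 0.014), and not without replicate 2. KIF3C, the alternative partner of KIF3A, was called higher in HT29 and HCT116. It was at 8.91, 6.60 and 6.24 CPM in 2D and 12.03, 8.26 and 10.6 CPM in 3D in HT29 (log2 fold change 0.50, SE 0.16, adjusted p = 0.014), where the libraries overlapped. In HCT116 it was at 6.82, 7.30 and 7.09 CPM in 2D and 9.50, 11.5 and 8.35 CPM in 3D (log2 fold change 0.47, SE 0.16, adjusted p = 0.026). KIF16B, a motor of early endosomes, was called higher in LS513, at 49.5, 47.1 and 48.4 CPM in 2D and 63.3, 58.2 and 66.5 CPM in 3D (log2 fold change 0.38, SE 0.13, adjusted p = 0.034). That call was lost in 5 of the 6 fits without 1 LS513 library, and the KIF3C calls in 3 of 6 such fits for HT29 and 4 of 6 for HCT116.

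In HT29 and LS513 the mitotic sum over the transport sum was lower in each 3D library than in any 2D library. The mitotic sum was 1251, 1322 and 1209 CPM in 2D and 791, 782 and 807 CPM in 3D in HT29, and the transport sum was 1024, 1052 and 1054 CPM and 815, 783 and 912 CPM. The mitotic sum over the transport sum was between 1.15 and 1.26 in 2D and between 0.885 and 0.999 in 3D. In LS513 this ratio was between 1.02 and 1.10 in 2D and between 0.856 and 0.907 in 3D, again without overlap. In HCT116 it was between 1.32 and 1.52 in 2D and between 1.30 and 1.41 in 3D, so the libraries overlapped. In LS174T it was between 0.658 and 0.741 in 2D and at 0.700, 1.00 and 0.614 in 3D, where the high value belonged to replicate 2. The 3D mean of the transport sum in LS174T was 0.813 of the 2D mean with that library and 0.912 without it, and the mitotic sum 0.846 and 0.837. No test was made of these sums.

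**Figure D3:**
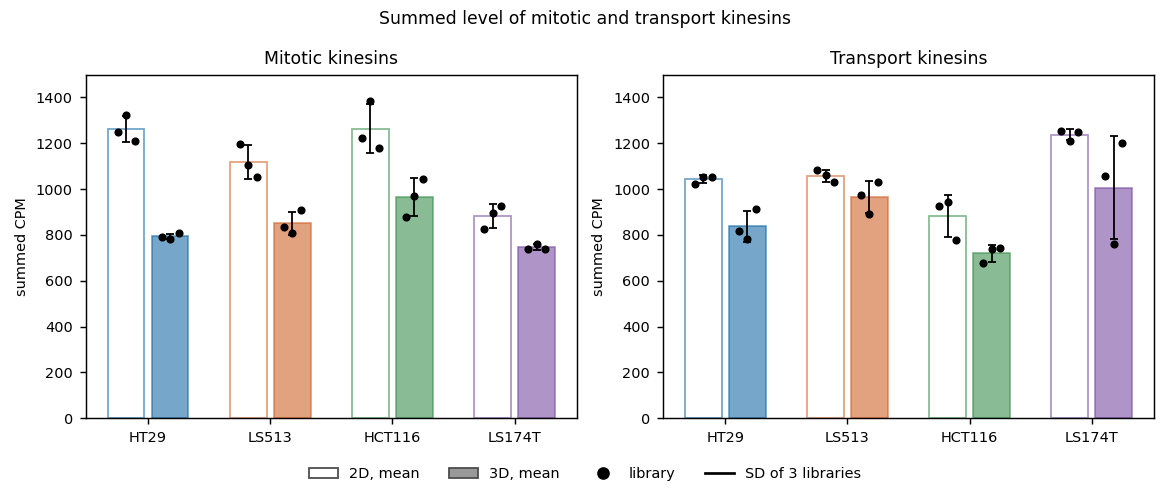
Summed CPM of the 14 mitotic and the 15 transport kinesins (vertical axes, from 0) in 2D (open bars) and 3D (filled bars), with the mean and SD of 3 libraries and each library as a point. The mitotic sum of each 3D library lies below those of 2D in each line, and replicate 2 of LS174T 3D has the lowest transport sum of its line at 760.0.

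The other kinesins held the largest increases called in HT29, HCT116 and LS174T, and also 2 genes called lower in all 4 lines, KIF24 and KIF27. Of the 11 tested, 4 were called lower and 3 higher in HT29, 2 and 0 in LS513, 4 and 1 in HCT116, and 5 and 2 in LS174T, beside 19.6%, 9.9%, 12.3% and 9.15% of all tested genes lower and 21.1%, 13.7%, 16.8% and 13.1% higher. KIF24, which acts with CP110 to hold back primary cilia by trimming centriolar microtubules, was called lower in all 4 lines. It was at 13.1, 13.999 and 13.3 CPM in 2D and 10.4, 10.2 and 11.2 CPM in 3D in HT29 (log2 fold change -0.35, SE 0.14, adjusted p = 0.048). For LS513 the levels were 29.2, 28.5 and 26.3 CPM in 2D and 19.01, 16.9 and 17.2 CPM in 3D (log2 fold change -0.66, SE 0.13, adjusted p = 7.9e-04). The HCT116 libraries were at 16.6, 15.8 and 9.94 CPM in 2D and 8.94, 8.75 and 9.32 CPM in 3D (log2 fold change -0.65, SE 0.14, adjusted p = 0.0011). The HT29 decrease was the smallest of the 4. In LS174T KIF24 was at 15.5, 14.5 and 15.3 CPM in 2D and 9.84, 7.94 and 9.21 CPM in 3D (log2 fold change -0.75, SE 0.14, adjusted p = 5.4e-04), and was still called without replicate 2 of 3D. The HT29 call was lost when each of the 6 HT29 libraries was left out.

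KIF27, a relative of KIF7 needed in motile cilia, was also called lower in all 4 lines at low levels. It was at 1.99, 2.24 and 1.59 CPM in 2D and 1.24, 0.933 and 1.45 CPM in 3D in HT29 (log2 fold change -0.70, SE 0.26, adjusted p = 0.032). In LS513 it was at 3.86, 3.62 and 3.90 CPM in 2D and 1.41, 1.74 and 2.46 CPM in 3D (log2 fold change -1.02, SE 0.23, adjusted p = 0.0023), the largest decrease of any kinesin called in that line. Its HCT116 libraries were at 2.93, 3.56 and 1.83 CPM in 2D and 1.63, 1.73 and 1.74 CPM in 3D (log2 fold change -0.71, SE 0.23, adjusted p = 0.026), with 1 pair of libraries close together at 1.83 and 1.74. Its LS174T libraries were at 5.86, 6.37 and 6.10 CPM in 2D and 3.98, 3.02 and 4.94 CPM in 3D (log2 fold change -0.61, SE 0.21, adjusted p = 0.042). Leaving out 1 library of the line ended the KIF27 call in 4 of 6 fits in HT29, 4 in HCT116 and 5 in LS174T. Its counts are uncertain, since 16.5% of its 75-base stretches occur in other loci.

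KIF21A, which restrains microtubule growth at the cell cortex, fell in 3 lines. It was at 96.4, 97.6 and 96.6 CPM in 2D and 60.6, 55.9 and 81.7 CPM in 3D in HT29 (log2 fold change -0.55, SE 0.20, adjusted p = 0.027). For HCT116 the levels were 59.3, 65.4 and 45.8 CPM in 2D and 30.2, 34.9 and 36.5 CPM in 3D (log2 fold change -0.75, SE 0.20, adjusted p = 0.0066). The libraries were separate in both lines and in LS174T, at 47.3, 48.1 and 49.5 CPM in 2D and 32.3, 18.1 and 38.95 CPM in 3D (log2 fold change -0.69, SE 0.20, adjusted p = 0.016), where the call was lost without replicate 2 of 3D. KIF21A in LS513 was at 40.1, 40.3 and 39.4 CPM in 2D and 27.1, 21.1 and 34.6 CPM in 3D and was not called (adjusted p = 0.055). The HT29 call was lost in 5 of 6 fits that left out 1 library.

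KIF2A, a microtubule depolymerase of spindle poles and cilia, shares 8.97% of its exon bases with IPO11 on the same strand. It was at 79.6, 80.1 and 86.6 CPM in 2D and 51.1, 41.3 and 56.2 CPM in 3D in HT29 (log2 fold change -0.73, SE 0.16, adjusted p = 0.0011). In HCT116 it was at 65.4, 69.9 and 56.3 CPM in 2D and 37.9, 41.3 and 46.3 CPM in 3D (log2 fold change -0.61, SE 0.16, adjusted p = 0.0069). For LS174T the levels were 54.8, 62.3 and 61.6 CPM in 2D and 44.1, 31.1 and 53.6 CPM in 3D (log2 fold change -0.47, SE 0.16, adjusted p = 0.04). That call was lost in 5 of 6 fits that left out 1 library. The LS513 libraries overlapped, at 59.9, 66.02 and 63.1 CPM in 2D and 46.9, 37.7 and 60.8 CPM in 3D (log2 fold change -0.38, SE 0.16, adjusted p = 0.097).

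KIF12 was the single kinesin called higher in at least 3 lines, where 8.38% of all tested genes were. It is a motor known from polarized kidney and liver epithelium. In HT29 it was at 4.08, 3.16 and 4.43 CPM in 2D and 13.6, 11.99 and 11.4 CPM in 3D (log2 fold change 1.67, SE 0.29, adjusted p = 1.0e-04). The HCT116 libraries were at 0.876, 1.09 and 1.44 CPM in 2D and 4.12, 2.68 and 2.34 CPM in 3D (log2 fold change 1.42, SE 0.33, adjusted p = 0.0023). In LS174T it was at 0.359, 1.31 and 1.21 CPM in 2D and 2.88, 4.34 and 2.82 CPM in 3D (log2 fold change 1.79, SE 0.33, adjusted p = 6.2e-04). Every 3D library of these lines lay above every 2D library. In LS513 no library had more than 3 counts of KIF12.

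KIF19, which shortens microtubules at the tips of motile cilia, was called higher in HT29 and LS174T. The LS174T libraries were at 0.538, 0.995 and 0.770 CPM in 2D and 4.01, 5.21 and 3.41 CPM in 3D (log2 fold change 2.44, SE 0.36, adjusted p = 1.0e-04). The 3D libraries of HT29 were at 0.392, 0.795 and 0.725 CPM, while its 2D libraries had 0, 3 and 0 counts, so no fold is given for that line (adjusted p = 2.3e-04). KIF19 had no count in LS513 and at most 3 counts in each HCT116 library. KIF9, a motor of motile cilia, was called higher in HT29, with means of 9.28 ± 1.73 CPM in 2D and 13.6 ± 1.09 CPM in 3D (log2 fold change 0.55, SE 0.13, adjusted p = 0.002). The antisense gene KIF9-AS1 covers 14.9% of its exon bases.

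The growth effect differed between the lines in 5 of the 37 kinesins tested, while 17.1% of all tested genes passed the same test. Compared in pairs of lines, 5 kinesins differed between HT29 and LS174T (6.65% of all genes), 3 between LS513 and LS174T (3.62%), 3 between HCT116 and LS174T (4.75%), 2 between HT29 and HCT116 (7.76%), 1 between LS513 and HCT116 (4.34%) and 0 between HT29 and LS513 (12.1%, with 8 kinesins at an unadjusted p under 0.05). KIFC3, a minus-end motor of adherens junctions and centrosomes, differed most (adjusted p = 2.3e-06). Its LS174T libraries were at 9.95, 8.38 and 7.73 CPM in 2D and 1.93, 3.06 and 2.43 CPM in 3D (log2 fold change -1.82, SE 0.16, adjusted p = 3.4e-08), which was the largest decrease of any kinesin called in that line. In HT29 it was at 22.01, 21.9 and 21.4 CPM in 2D and 17.5, 16.5 and 15.9 CPM in 3D (log2 fold change -0.39, SE 0.14, adjusted p = 0.031). The LS513 libraries were at 20.7, 19.8 and 17.2 CPM in 2D and 14.4, 15.2 and 12.4 CPM in 3D (log2 fold change -0.46, SE 0.14, adjusted p = 0.02). The 3 lines shared the direction, and the HT29 call was lost in 5 of 6 fits that left out 1 library and the LS513 call in 3. In HCT116 the libraries overlapped, at 18.4, 16.96 and 23.4 CPM in 2D and 25.5, 24.3 and 20.98 CPM in 3D (log2 fold change 0.27, SE 0.14, adjusted p = 0.15). The growth effect in HCT116 exceeded that in LS174T by 2.09, SE 0.21, adjusted p = 7.9e-07, and that in HT29 exceeded it by 1.43, SE 0.21, adjusted p = 1.3e-04. Without replicate 2 of LS174T 3D, the log2 fold change of KIFC3 in LS174T was -1.98.

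KIF13B, which carries membrane proteins to the cell edge, moved in opposite directions (adjusted p = 0.0016). Its LS513 libraries were at 59.6, 60.8 and 61.8 CPM in 2D and 85.3, 79.8 and 74.99 CPM in 3D (log2 fold change 0.40, SE 0.10, adjusted p = 0.0048). Its HCT116 libraries were at 16.1, 20.5 and 15.4 CPM in 2D and 20.97, 23.3 and 22.7 CPM in 3D (log2 fold change 0.36, SE 0.10, adjusted p = 0.0097). For LS174T the levels were 35.5, 36.7 and 36.4 CPM in 2D and 28.6, 25.5 and 31.8 CPM in 3D (log2 fold change -0.34, SE 0.10, adjusted p = 0.019). Libraries were separate in these 3 lines, higher in 3D in LS513 and HCT116 and lower in LS174T. HT29 was at 60.1, 55.2 and 55.1 CPM in 2D and 66.4, 61.5 and 68.1 CPM in 3D and was not called (adjusted p = 0.11). The LS513 and LS174T effects differed by 0.74, SE 0.14, adjusted p = 0.0025. Without replicate 2 of LS174T 3D, the log2 fold change in LS174T was -0.25 and was not called. The LS174T call was also lost without 2D replicate 2 or 3, and the HCT116 call without 2D replicate 1 or 3.

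KIF21B, a regulator of microtubule growth known from neurons and lymphocytes, was called in LS174T alone. It was at 11.3, 10.97 and 11.8 CPM in 2D and 6.59, 4.30 and 6.11 CPM in 3D there (log2 fold change -0.998, SE 0.18, adjusted p = 4.9e-04). For LS513 the levels were 45.1, 47.7 and 46.5 CPM in 2D and 50.6, 49.2 and 55.01 CPM in 3D (log2 fold change 0.15, SE 0.16, adjusted p = 0.56), and in HCT116 at 9.30, 10.6 and 8.88 CPM in 2D and 7.97, 10.2 and 8.35 CPM in 3D. LS174T thus stood alone, and the difference of effects between LS513 and LS174T was 1.15, SE 0.24, adjusted p = 0.0064. The HT29 libraries, at 47.9, 25.6 and 44.6 CPM in 2D and 35.9, 41.1 and 45.4 CPM in 3D, included 1 low 2D library.

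The remaining pair were mitotic kinesins with a larger decrease in HT29. KIF20A (MKLP2), which brings the chromosomal passenger complex to the midzone, was at 110.1, 121 and 94.6 CPM in 2D and 58.6, 47.9 and 57.7 CPM in 3D in HT29 (log2 fold change -0.99, SE 0.13, adjusted p = 3.6e-06). In LS513 it was at 117, 102 and 87.4 CPM in 2D and 74.2, 66.3 and 73.5 CPM in 3D (log2 fold change -0.52, SE 0.13, adjusted p = 0.0048). For HCT116 the levels were 109.6, 140.3 and 123.2 CPM in 2D and 86.3, 107 and 119.5 CPM in 3D (log2 fold change -0.25, SE 0.13, adjusted p = 0.14). Only in HCT116 did the KIF20A libraries overlap. In LS174T they were at 61.7, 68.3 and 75.8 CPM in 2D and 56.3, 55.3 and 52.4 CPM in 3D (adjusted p = 0.07). The effects in HT29 and HCT116 differed by -0.74, SE 0.18, adjusted p = 0.011. The test across the lines (adjusted p = 0.019) was lost without HT29 2D replicate 2 (adjusted p = 0.072) or HT29 3D replicate 3 (adjusted p = 0.067). That test was also lost with the replicate number as a block (adjusted p = 0.080) and with technical replicates e to h alone (adjusted p = 0.052).

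KIF18A, which dampens chromosome movements at metaphase, was at 26.1, 28.4 and 25.8 CPM in 2D and 14.5, 11.8 and 13.96 CPM in 3D in HT29 (log2 fold change -0.99, SE 0.14, adjusted p = 1.3e-05). The LS513 libraries were at 28.6, 26.9 and 25.1 CPM in 2D and 17.8, 15.7 and 23.8 CPM in 3D (log2 fold change -0.49, SE 0.14, adjusted p = 0.013). In HCT116 it was at 36.9, 49.3 and 35.5 CPM in 2D and 25.9, 27.1 and 29.5 CPM in 3D (log2 fold change -0.56, SE 0.14, adjusted p = 0.0042). These 3 lines had separate libraries, and LS174T did not, at 14.6, 18.3 and 18.6 CPM in 2D and 14.9, 16.2 and 14.9 CPM in 3D (log2 fold change -0.16, SE 0.14, adjusted p = 0.44). The effects in HT29 and LS174T differed by -0.83, SE 0.20, adjusted p = 0.013. The test across the lines (adjusted p = 0.032) was lost in 8 of 24 fits that left out 1 library, with the highest adjusted p of 0.087 without HT29 3D replicate 3. That test was also lost with the replicate number as a block (adjusted p = 0.18) and with technical replicates a to d alone (adjusted p = 0.27).

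**Figure D4:**
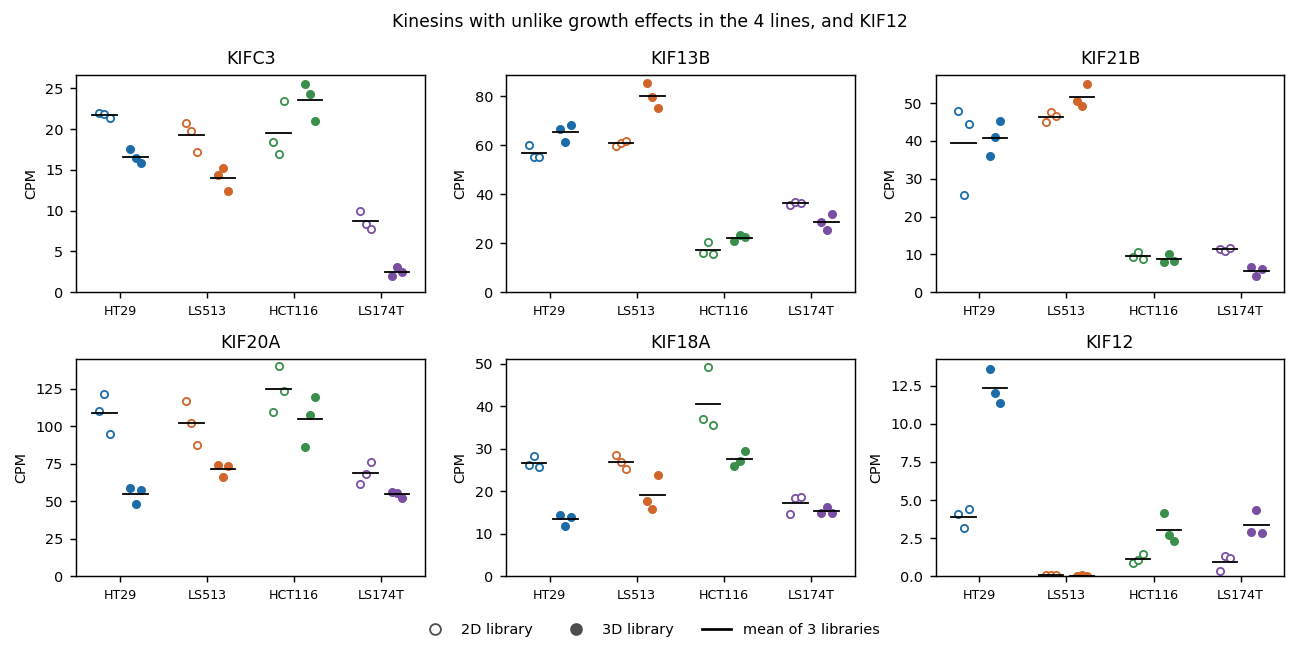
CPM in the 24 libraries (vertical axes, from 0) of the 5 kinesins whose growth effect differed between lines and of KIF12, with open points for 2D, filled points for 3D and bars for the mean of 3 libraries. KIFC3 and KIF21B drop most in LS174T, KIF13B rises in LS513 and falls in LS174T, and KIF12 rises in HT29, HCT116 and LS174T.

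Between the lines grown in 2D, 35 of the 37 tested kinesins differed, beside 91.7% of all tested genes. The exceptions were KIF14 (adjusted p = 0.70), with means from 44.8 ± 4.27 CPM in LS513 to 54.7 ± 2.80 CPM in HT29, and KIFC2 (adjusted p = 0.067). HCT116 grew in another medium (McCoy) than the other lines (DMEM), according to the study's methods, so medium and line cannot be told apart there. KIF5A and KIF5C, the kinesin-1 heavy chains known from neurons, were at 8.71 ± 0.824 and 6.72 ± 1.63 CPM in HCT116 in 2D. In each library of the other lines KIF5A was at 0.249 CPM or less, and KIF5C at 0.0905 CPM or less. KIF26A, a kinesin without motor ATPase activity, was at 37.4 ± 1.98 CPM in LS174T, 21.3 ± 2.16 CPM in HCT116 and 0.210 ± 0.257 CPM in LS513, and had no count in HT29 in 2D.

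KIF3C was at 31.8 ± 2.98 CPM in LS513, 7.25 ± 1.45 CPM in HT29, 7.07 ± 0.239 CPM in HCT116 and 0.147 ± 0.0524 CPM in LS174T, where the test of HT29 against HCT116 gave an adjusted p of 0.84. KIF7, a regulator of Hedgehog signalling at the ciliary tip, was at 8.24 ± 0.967 CPM in HT29 and under 1 CPM in the other lines. TICRR overlaps 11.8% of its exon bases on the opposite strand, and the strand setting of the counting is not given in the sources used here. KIF16B was at 48.3 ± 1.20 CPM in LS513 and 41.6 ± 4.03 CPM in LS174T, against 11.95 ± 1.09 CPM in HT29 and 10.1 ± 1.45 CPM in HCT116. The level of KIF21B was greater in LS513 (46.4 ± 1.31 CPM) and HT29 (39.3 ± 11.998 CPM) than in LS174T (11.4 ± 0.408 CPM) and HCT116 (9.59 ± 0.883 CPM). KIF17, a ciliary motor, reached 0.951 ± 0.112 CPM in HCT116, and KIF26B reached 1.95 ± 0.432 CPM in LS174T.

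**Figure D5:**
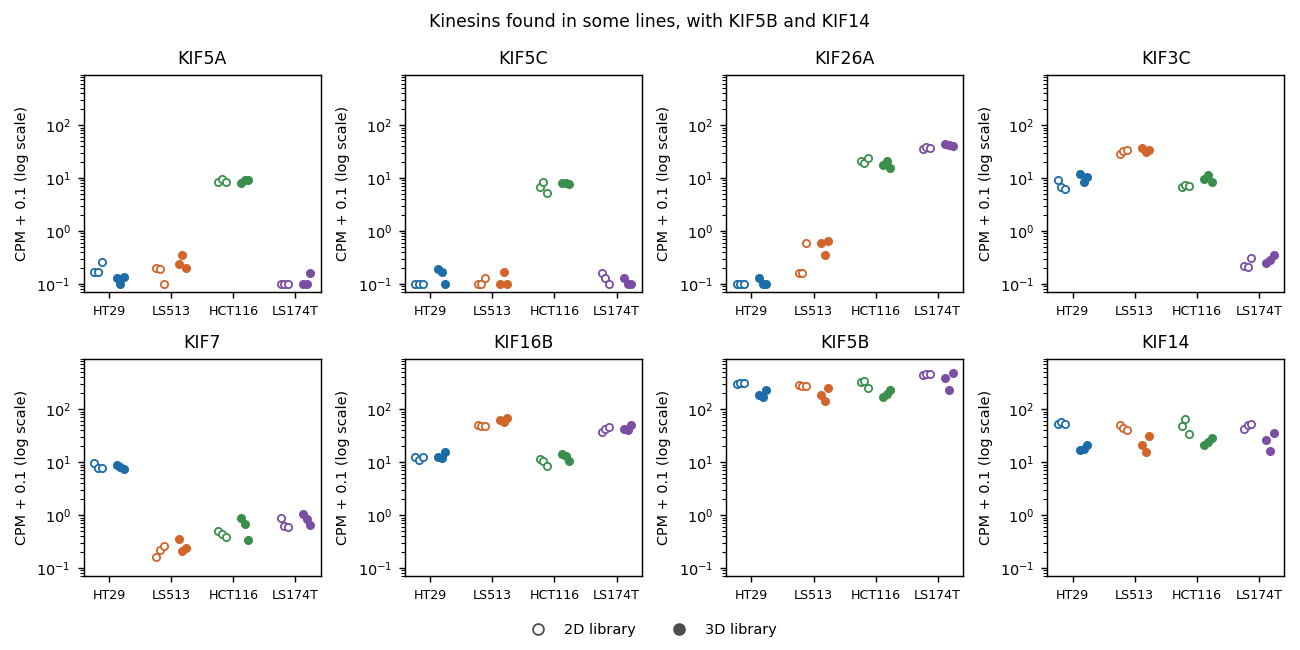
CPM plus 0.1 on a log axis for 8 kinesins in the 24 libraries, with open points for 2D and filled points for 3D. KIF5A and KIF5C are found in HCT116, KIF26A in HCT116 and LS174T and KIF7 mainly in HT29, while KIF5B and KIF14 are present in each library.

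The partners of the mitotic kinesins were lower too. Of 20 spindle and cytokinesis partners, HT29 had 20 called lower, LS513 16, HCT116 13 and LS174T 8, and 0 were higher. Their medians were -0.73, -0.46, -0.41 and -0.19. Of all tested genes, 19.6%, 9.9%, 12.3% and 9.15% were lower and 21.1%, 13.7%, 16.8% and 13.1% higher in this order of lines. CENPE, the kinetochore kinesin, was lower in all 4 lines (-1.16, -0.70, -0.85 and -0.58), and so was TPX2, which loads KIF11 and KIF15 on the spindle (-0.87, -0.37, -0.46 and -0.31). ASPM, a spindle pole protein with the smallest p of these partners, was lower in each line (-1.66, -0.92, -1.06 and -0.79). RACGAP1, the partner of KIF23, had log2 fold changes of -0.70, -0.46, -0.25 and -0.40, and was not called in HCT116. PRC1, which binds KIF4A at the midzone, was called in HT29 alone (-0.34). Among the 10 G2/M transcription factors, FOXM1 was lower in all 4 lines (-0.78, -0.39, -0.63 and -0.58) and MYBL2 in HT29, HCT116 and LS174T (-0.49, -0.47 and -0.25). The list had 6, 6, 8 and 3 genes lower and 1, 0, 1 and 0 higher in the order of lines. Of 15 S phase genes, 7, 11, 14 and 7 were lower and 0 higher, with medians of -0.21, -0.33, -0.43 and -0.24, and RRM1, a subunit of ribonucleotide reductase, was lower in each line (-0.54, -0.54, -0.63 and -0.40). MKI67, the proliferation marker, was called lower in HT29 (-1.21) and LS174T (-0.92) and not in LS513 (-0.48, adjusted p = 0.056) or HCT116 (-0.45, adjusted p = 0.064). With replicate 2 of 3D left out, LS174T had 5 of 20 spindle partners lower and 2 of 10 G2/M factors. It also had 8 of 15 S phase genes lower, beside 3.56% of all genes. ASPM, RACGAP1, FOXM1, MYBL2, RRM1 and MKI67 were still called there, but CENPE (-0.57, adjusted p = 0.088) and TPX2 (-0.22, adjusted p = 0.23) were not. Medians of the spindle, G2/M and S phase lists were negative in every line, as were those of the mitotic kinesins. The lines did not keep the same order. The S phase median was -0.21 in HT29 and -0.43 in HCT116, where the mitotic medians were -0.86 and -0.52. The part of these genes in the result was not tested.

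The partners of the transport kinesins were mixed. Of 15 cargo adaptors, 4, 1, 2 and 3 were lower and 5, 5, 3 and 2 higher. Of all tested genes, 19.6%, 9.9%, 12.3% and 9.15% were lower and 21.1%, 13.7%, 16.8% and 13.1% higher. Several counts of adaptors and of dynein genes lie near these shares. KLC4, a kinesin-1 light chain, was higher in all 4 lines (1.42, 1.84, 1.20 and 0.88) and ranked first by p among the adaptors in each, while KLC1, the main light chain, was called in none. KIFAP3, the kinesin-2 adaptor, was lower in HT29 (-0.34) and higher in LS513 (0.47). Of 16 genes of cytoplasmic dynein and dynactin, the motor that moves opposite to most kinesins, 6, 0, 1 and 4 were lower and 4, 4, 3 and 3 higher. Its heavy chain DYNC1H1 was lower in HT29 (-0.73) and LS174T (-0.39). In LS174T with replicate 2 of 3D left out, 2 adaptors were lower and 1 higher, KLC4 (0.67). Of the 16 dynein and dynactin genes 0 were called, and DYNC1H1 was at -0.42 (adjusted p = 0.069). Of all 19387 genes tested, 691 were then lower and 1416 higher.

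Transcript length and GC content moved with the growth effect in mitotic kinesins and in all genes. Across the 12 tested mitotic kinesins, Spearman's rho of the mean growth effect with the length of the longest transcript was -0.90, and with GC content 0.72. Across the 14 transport kinesins they were -0.10 and 0.19. In single lines the transport rho with length was 0.19 in LS513 and -0.46 in HCT116. With GC content it was 0.086 in LS513 and 0.72 in HCT116. Across the 19322 tested genes with both values the same measures were -0.26 and 0.33, so longer and more AT-rich transcripts tended to lower values in 3D. Genes are not independent replicates, and these are descriptions. KIF14 and KIF20B, with the largest decreases, have longest transcripts of 7274 and 6419 bases, and KIF22, KIFC1 and KIF2C, with the smallest, have 2505, 2706 and 2955 bases. With an offset for length and GC content in each library, chosen after seeing the data, 12, 11, 11 and 7 mitotic kinesins were called lower in HT29, LS513, HCT116 and LS174T, and 0 higher. Of all 19322 genes, 18.1%, 11.7%, 13.3% and 9.39% were then called lower and 22.6%, 15.3%, 17.4% and 12.7% higher. The class medians were then -0.62, -0.37, -0.35 and -0.27. Transport kinesins then had 2, 2, 1 and 2 genes lower and 5, 2, 3 and 0 higher. No longer called with the offset were the decreases of KIF1B, KIF21A and KIF24 in HT29, of KIF27 in HT29, HCT116 and LS174T, and of KIF1C and KIF13B in LS174T.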

How the data were processed

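Raw counts per gene were deposited by the authors for each technical replicate, with no normalization. Reads of 75 bases from strand-specific poly(A) libraries had been trimmed with Trim Galore 0.4.1 and aligned with STAR, reads with more than 1 alignment removed, and exon overlaps counted with HTSeq 0.5.3, whose strand option is not given in the sources used here. The submitters' processing notes name hg19, whereas 57980 of the 58243 gene identifiers are those of GENCODE 29 on GRCh38, which was used for symbols, lengths and overlaps. Technical replicates were summed. There were 8 per library and 7 for HT29 3D replicate 4, whose eighth was not analysed here, giving 24 libraries of 18723942 to 34277421 counts. Intervals were not computed, and the floor of 3 counts covers counting error only.

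The counts were fitted in R 4.3.3 with edgeR 4.0.16 (filterByExpr, TMM, robust quasi-likelihood, 1 coefficient for each of 8 groups), p-values being adjusted by Benjamini-Hochberg over the 19387 genes tested. Contrasts were 3D against 2D in each line, their mean and differences, and the lines in 2D. Kinesins called in the same direction in at least 3 lines, those with unlike effects between lines, and the 2 largest changes in each direction and line are given per library. Members and lists were chosen with earlier results of these data known. Median technical chi-square per degree of freedom was 0.906 to 0.934. Alternatives were DESeq2 1.42.0 and its size factors, other filters, cutoffs and technical replicates, a replicate block, 1 line at a time, 1 library left out and an offset for length and GC content. The pipeline was tested on simulated data. Promoters came from RefSeq GRCh38.p14.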

Additional observations from a re-analysis of the deposited data

Results flagged for a closer look

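For 5 kinesins the change between 2D and 3D differed between the 4 lines in edgeR's test of the line by growth interaction. KIFC3 had the smallest adjusted p (2.3e-06), with a decrease in HT29, LS513 and LS174T and no call in HCT116. KIF13B followed (adjusted p = 0.0016), higher in 3D in LS513 and HCT116 and lower in LS174T. Its LS174T call was lost in 3 of 6 fits that left out 1 library of the line and with an offset for transcript length and GC content (-0.056), and its HCT116 call without 2D replicate 1 or 3. KIF21B (adjusted p = 0.0056) was lower in LS174T and called in no other line. KIF20A (adjusted p = 0.019) and KIF18A (adjusted p = 0.032) fell most in HT29. The interaction calls of KIFC3, KIF13B and KIF21B held in every fit with 1 library left out, whereas those of KIF20A and KIF18A did not: the KIF20A call was lost without HT29 2D replicate 2 or HT29 3D replicate 3. The KIF18A call was lost in 8 of 24 such fits. Both calls were also lost with the replicate number as a block. With the offset for transcript length and GC content, 11 of the 37 kinesins passed this test. The share of all genes that passed with the offset is not given here, so that count is not read as a result about kinesins. Groups of 3 libraries were too small for a test of single outlying libraries, so each library was left out in turn instead.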

How the results depend on the processing

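With the log2 fold change cutoffs of -0.5 and 1.5 that the study used, kinesins called higher numbered 2 in HT29 (4 without cutoffs), 0 in LS513 (2) and 0 in HCT116 (3), those called lower 7 in LS513 (12) and 9 in LS174T (14), and mitotic kinesins called lower 5 in LS513 (9) and 3 in LS174T (5). At an adjusted p under 0.01 there was 1 higher in LS513, and in LS174T 4 lower, 1 of them mitotic. Fitted on the 6 libraries of the line alone, LS174T had 5 lower, 2 of them mitotic, and HCT116 1 higher. With the offset for length and GC content, chosen after seeing the data, 8 kinesins were called higher in HT29 and 5 in HCT116, 11 differed between lines, the mitotic medians were -0.62 in HT29 and -0.35 in HCT116, the transport medians were 0.036 in HT29, 0.037 in LS513 and -0.080 in LS174T, and KIF1C in LS174T turned from -0.24 to 0.029. In HT29 the mitotic median was -0.79 over all genes with at least 1 count, and the transport median was -0.062 there, -0.098 with DESeq2 size factors and -0.17 over members with a mean of at least 1 CPM. Without its most abundant member the mitotic sum in 3D was 0.602 of that in 2D in HT29 and 0.800 in LS174T. The cause of these shifts was not tested, and the share of all genes that differed between lines with the offset is not given here.

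Same-numbered libraries did not deviate together: 0 of 11 pairs had a correlation over 0.1, and the range was -0.15 to 0.094. With the replicate number as a block, 9 kinesins were lower in LS174T, 3 of them mitotic, and 3 differed between lines.

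Leaving out 1 library of a line at a time gave 1 to 2 kinesins higher and 5 to 9 mitotic kinesins lower in LS513, and 1 to 6 kinesins higher in HCT116. In LS174T it gave 4 to 19 lower, 1 to 6 of them mitotic. Leaving out any of the 24 libraries gave 3 to 6 kinesins that differed between lines, the 3 being without HT29 3D replicate 3. Transport medians ranged from -0.15 to -0.055 in HT29, -0.11 to -0.017 in LS513, -0.054 to 0.13 in HCT116 and -0.46 to -0.092 in LS174T. The libraries that moved a count by over 1.5 times were LS174T 2D replicates 2 (9 lower) and 3 (6), LS174T 3D replicates 1 (9) and 2 (4), LS513 3D replicate 2 for mitotic kinesins (5), HCT116 2D replicate 1 (1 higher) and 3D replicate 3 (6 higher), and LS513 2D replicates 1 and 2 and 3D replicates 1 and 3 (1 higher each). Of 1180 alternative values for 73 results on single genes, 1022 kept their side of the threshold, 157 fell short of it and 1 turned its sign. The 5 genes with 44 counts or fewer over all libraries were not tested.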
